A study of Caenorhabditis elegans with 2 samples.

Results

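Divergent gene pairs are adjacent genes on opposite strands that point away from each other, so that the sequence between their 5′ ends lies upstream of both. Pairs were chosen by position alone from protein-coding genes of the Caenorhabditis elegans WBcel235 assembly (the sequence of ce11), as neighbours whose gene 5′ ends lay 1 to 1000 bp apart with no overlap. No ChIP value entered the rule, but the pairs were chosen as a subject with earlier results of these data known. The rule gave 1717 pairs, which hold 3434 of 19973 protein-coding genes, or 17.2%. With each pair counted once, they made up 1717 of 18256 protein-coding promoters. The gap between the ends ran from 1 to 999 bp with a median of 475 bp.

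The data came from chromatin immunoprecipitation and sequencing (ChIP-seq) of the factor CRH-2 in whole second-stage (L2) larvae of mixed sex. There was 1 group of 2 biological replicates, both of strain OP425, genotype unc-119(tm4063) III; wgIs425, a stable transgenic line in which crh-2 (sequence name C27D6.4) carries a GFP-FLAG tag at its C terminus. A pair was called occupied when the summit of a replicated peak lay between the 5′ ends or within 250 bp of either. Replicated peaks are the 5735 regions that the authors kept from both replicates by the irreproducible discovery rate (IDR) procedure. Tagged protein in whole animals was measured, so the cells of origin are not known. No control library was analysed here, so binding and a signal common to open chromatin cannot be told apart.

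CRH-2 is a basic leucine zipper protein of the CREB family, whose members bind DNA as dimers at the cyclic AMP response element or related letters. In a divergent pair a single stretch of nucleosome-free DNA can serve transcription in both directions, with a start site near each edge. In C. elegans many messages receive a spliced leader in place of their own 5′ end. The annotated 5′ end of such a gene can be the trans-splice site, which can lie well downstream of where transcription begins.

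Sequences at the summits of named pairs are given first. Windows with a match are shown so that its letters and place can be seen. Only 42 of 625 pair summits (6.72%) held one, against 11.7% of single-promoter summits and 11.9% of all peaks. Capitals in the 5 windows below mark a cyclic AMP response element variant or a CACGTG E-box found by letter match within 50 bases of the strongest summit. All are on the plus strand of WBcel235, 101 bases long, with the summit as the middle base. The window of rab-1/C39F7.5, chrV:1264449-1264549, holds TGACGTGG starting 11 bases before the summit. The windows of H12C20.7/nhr-68 (chrV:11572987-11573087), Y59E9AL.36/nbet-1 (chrIV:5209563-5209663) and T11G6.2/hars-1 (chrIV:10858756-10858856) hold CACGTG. That of pdi-1/C14B1.2 (chrIII:3701736-3701836) holds TGACGTGT, read on the minus strand, as well as CACGTG.
rab-1/C39F7.5: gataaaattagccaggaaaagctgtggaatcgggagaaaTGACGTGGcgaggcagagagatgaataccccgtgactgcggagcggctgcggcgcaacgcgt
H12C20.7/nhr-68: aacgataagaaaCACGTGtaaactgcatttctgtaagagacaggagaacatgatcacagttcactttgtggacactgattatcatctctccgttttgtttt
Y59E9AL.36/nbet-1: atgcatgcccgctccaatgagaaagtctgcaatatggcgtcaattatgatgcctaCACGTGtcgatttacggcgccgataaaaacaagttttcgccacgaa
pdi-1/C14B1.2: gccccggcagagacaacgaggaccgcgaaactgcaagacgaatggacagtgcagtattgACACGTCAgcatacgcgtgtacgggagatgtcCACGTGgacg
T11G6.2/hars-1: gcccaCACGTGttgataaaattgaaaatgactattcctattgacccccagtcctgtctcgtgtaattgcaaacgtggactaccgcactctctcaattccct

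The next windows are those of the strongest named pairs off the first chromosome with none of these letters, iff-2/F54C9.14 at chrII:8561384-8561484 and rpl-20/Y17G9B.5 at chrIV:4750013-4750113, again on the plus strand of WBcel235. They are shown because they hold the strongest peaks among the pairs, and they have no capitals.
iff-2/F54C9.14: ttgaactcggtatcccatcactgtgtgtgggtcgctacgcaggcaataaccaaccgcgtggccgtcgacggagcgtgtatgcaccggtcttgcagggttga
rpl-20/Y17G9B.5: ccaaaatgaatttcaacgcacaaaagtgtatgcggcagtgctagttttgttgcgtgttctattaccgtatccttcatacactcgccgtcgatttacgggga

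Gaps between divergent genes were occupied more often than single promoters. Of the 1717 pairs, 625 held a summit, and percent called was 36.4 (Wilson 95% interval 34.2 to 38.7). Single promoters are the 9597 genes in no pair whose first 1000 bp upstream held no protein-coding gene. In windows as long as that of the median pair (976 bp, from 725 bp upstream to 250 bp downstream), 1144 of them held a summit, or 11.9% (11.3 to 12.6). Among 5550 genes close behind a neighbour on the same strand, some of which can lie inside operons, 688 windows held one, or 12.4%.

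Each replicate's own 5735 strongest regions gave nearly the same shares. The occupied share of pairs was 34.8% in replicate 1 and 35.4% in replicate 2 (35.1% ± 0.412, SD, n = 2). For single promoters it was 12.0% and 11.5% (11.7% ± 0.302, SD, n = 2). The difference was 22.8 percentage points in replicate 1 and 23.8 in replicate 2. The spread between the replicates shows how alike their lists are over the same genes, and not the error of a difference between classes. With 1 group of 2 replicates there was no test across samples, so differences between classes of genes are given beside this spread and are not called particular to pairs.

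A pair window serves a pair of genes, and the 2 ways of counting give different ratios. The share of pairs was 3.05 times that of single promoters, but counted per gene the ratio was smaller. Pair windows held 638 summits, which is 186 per 1000 genes, against 1167 summits and 122 per 1000 genes for single promoters. That ratio was 1.53 in the replicated list, 1.46 in replicate 1 and 1.52 in replicate 2 (1.49 ± 0.0469, SD, n = 2). Single 5′ ends had a summit within 250 bp in 6.77% of cases and pair ends in 22.3%, where 1 summit in a short gap counts at both ends. The share was 8.49% for ends behind a same-strand neighbour and 7.9% for the ends of all other genes outside pairs.

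Most occupied pairs were also occupied in each replicate's own list. The replicated list was made from these same replicates, so part of this overlap is built in. Of the 625 occupied pairs, 572 were also occupied in the list of replicate 1 and 580 in that of replicate 2, and 533 (85.3%) in both. A further 329 of the 1092 unoccupied pairs (30.1%) held a weaker region of the pooled list, as did 2158 of 8453 unoccupied single promoters (25.5%). An unoccupied pair is therefore one below the authors' threshold and not one shown to lack signal.

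Gaps of intermediate width were occupied most often. The share was 25.2% of 246 pairs with gaps up to 200 bp, 43.8% of 468 pairs at 200 to 400 bp and 42.0% of 393 pairs at 400 to 600 bp. It was 35.7% of 345 pairs at 600 to 800 bp and 26.4% of 265 pairs at 800 to 1000 bp, each class including its upper limit. Single promoters in windows of the matching lengths rose throughout, from 9.11% at the shortest through 10.5%, 12.1% and 13.7% to 15.5% at the longest. These windows are nested at the same 5′ ends, so their share can only rise as a longer window takes in more sequence. The Wilson intervals of the pairs at 200 to 400 bp (39.4 to 48.3%) and at 400 to 600 bp (37.2 to 46.9%) overlapped. Neither met those of the narrowest (20.2 to 31.0%) or widest gaps (21.5 to 32.0%). These intervals cover counting error only and are not a test between widths. At the edge of the rule, 40 of 130 pairs with gaps over 900 and up to 1000 bp were occupied and 23 of 97 with gaps over 1000 and up to 1100 bp.

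**Figure D1:**
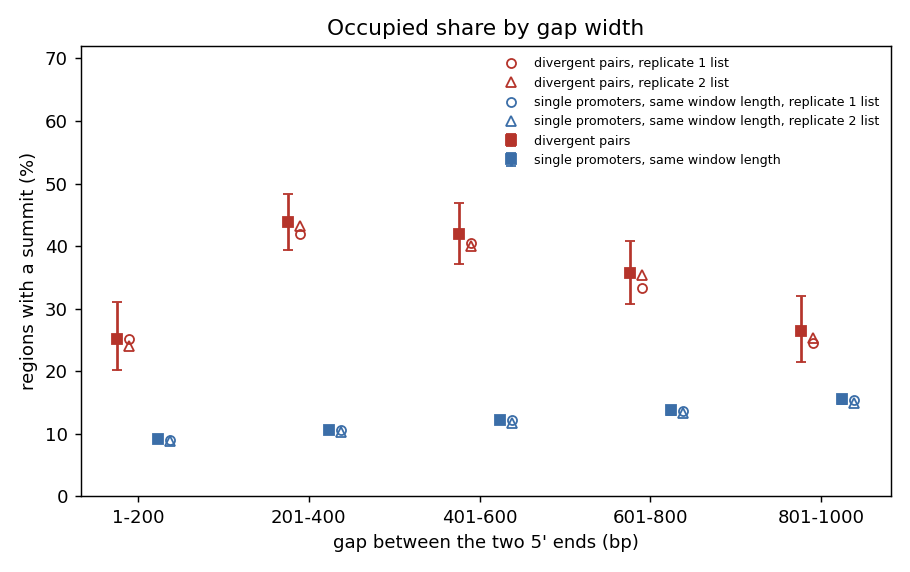
Share of divergent pairs with a summit (%, vertical axis) by width of the gap (bp, horizontal axis) beside single promoters in windows of the same length; bars are Wilson 95% intervals and the open marks are the 2 replicates. Pairs run from 25.2% in the narrowest gaps through 43.8% to 26.4% in the widest, and single promoters from 9.11% to 15.5%.

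Most of the occupied pairs had their summit in the DNA the genes share. In 564 of 625 (90.2%) a summit lay between the 5′ ends, and in the other 61 the summits lay only beyond an end, on the side of a gene. The rule's outer limit mattered little, since 3 summits lay over 200 and up to 250 bp beyond an end and 2 lay over 250 and up to 300 bp beyond. The strongest peak covered both 5′ ends in 105 pairs (16.8%), exactly 1 in 300 (48%) and neither in 220 (35.2%). Since 89.2% of all replicated peaks had the same width of 376 bp, this coverage depends on gap width and does not measure the extent of binding. In gaps up to 500 bp the share over both ends was 29.7%. In 218 pairs (34.9%) a single summit lay within 250 bp of both ends.

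Seen from one gene, the summits stood close to the 5′ end and upstream of it. The strongest summit of an occupied pair lay at a median of -124 bp from the nearer end (quartiles -194 and -45 bp), and 90.1% lay upstream. Around single 5′ ends, the summits between 1000 bp upstream and 250 bp downstream had a median of -283 bp (quartiles -595 and -143 bp). Of these, 94.4% lay upstream, so that position was not particular to pairs. The medians and upstream shares are not like for like, because a pair has a choice of ends and a gap of limited width. In the 100 bp that begin 200 bp upstream there were 101 summits per 1000 pair ends, 30.0 per 1000 single ends and 35.5 per 1000 ends behind a same-strand neighbour.

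**Figure D2:**
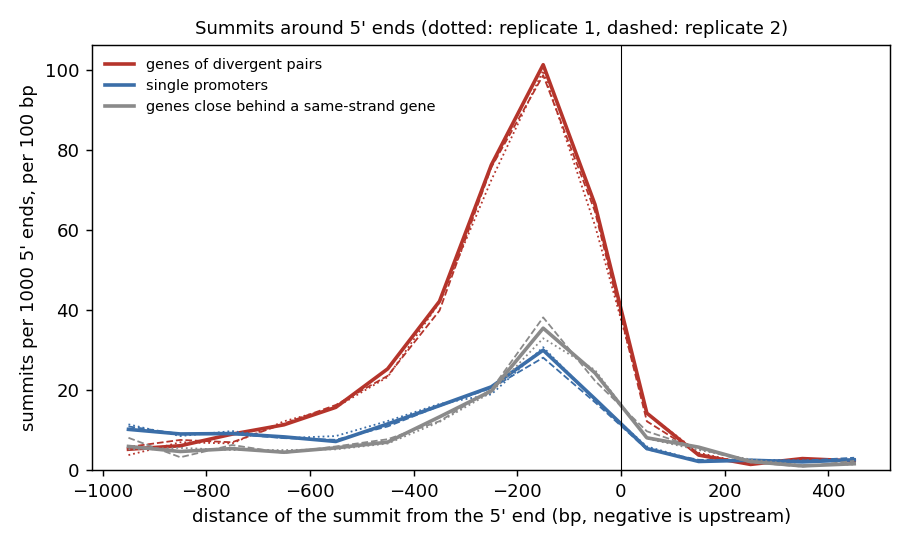
Summits per 1000 5′ ends in steps of 100 bp (vertical axis) by distance from the end (bp, horizontal axis, negative is upstream), for pair ends, single ends and ends behind a same-strand gene; dotted and dashed lines are replicates 1 and 2. All classes peak just upstream of the end, with 101 per 1000 at pair ends and 30.0 at single ends, and a summit in a gap counts at both ends of its pair.

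Within the gap, summits gathered towards the centre without favouring a side. With each gap cut into 3 equal parts, 258 of the 573 summits between the ends lay in the middle part (45.0%, Wilson 41.0 to 49.1%), 161 in the left and 154 in the right. The share in the middle part was 45.7% in replicate 1 and 46.6% in replicate 2. That part makes up 33.3% of each gap.

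The central position was most common in gaps of middling width. The middle part held 50.3% of summits at 200 to 400 bp, 55.3% at 400 to 600 bp and 40.2% (Wilson 31.7 to 49.2%) at 600 to 800 bp, but 10 of 37 in gaps up to 200 bp and 23.9% at 800 to 1000 bp. The distance from the nearer end grew and then levelled off. Its median was 22 bp in the narrowest gaps, then 96, 176 and 196 bp, and 200 bp in the widest. From 400 bp upwards the median distance changed by little, while the share in the middle part was lower in wider gaps.

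**Figure D3:**
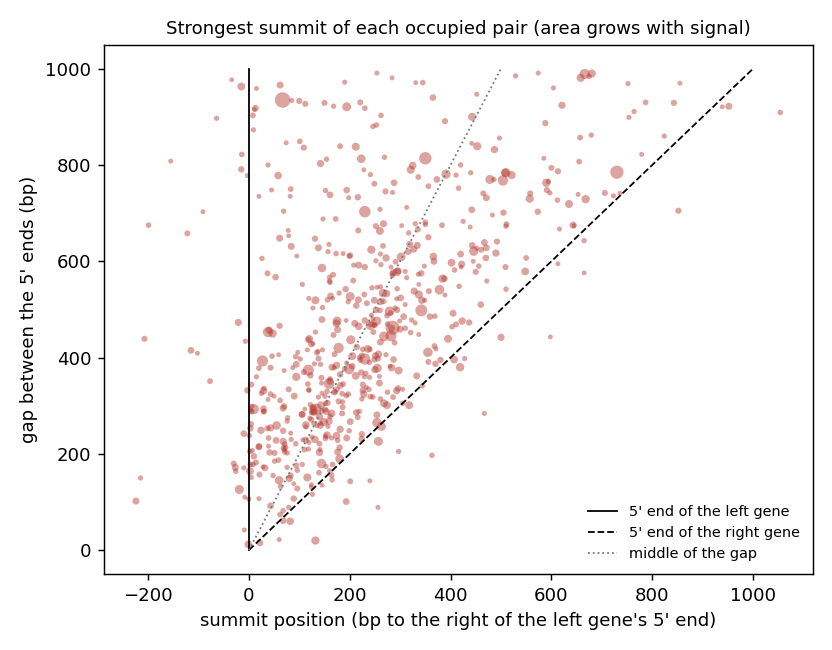
Position of the strongest summit of each occupied pair (bp to the right of the left gene's 5′ end, horizontal axis) against the width of the gap (bp, vertical axis); lines mark the ends and the centre, and point area grows with signal. The share of between-end summits in the middle part of the gap is 50.3% at 200 to 400 bp and 55.3% at 400 to 600 bp, and 23.9% at 800 to 1000 bp.

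A single summit was the rule, and 13 pairs held 2. Their gaps ran from 328 to 966 bp (median 650 bp), 8 of them over 600 bp, and in 8 each 5′ end had a summit within 250 bp. The widest spacing was 1020 bp, at R04E5.9/cnnm-2 on chromosome X, whose cnnm-2 encodes a metal transporter, with signals of 304 and 106. At ecps-1/atx-2 on III the summits lay 599 bp apart with signals of 318 and 161, where atx-2 is the ataxin-2 RNA-binding protein. At nhr-80/H10E21.1 the spacing was 558 bp and the signals were nearly equal, 133 and 118. nhr-80 is a nuclear hormone receptor of fatty acid desaturation. At larp-5/sld-2 the spacing was 739 bp, with 222 and 113. At aka-1/ubc-6, with signals of 162 and 113, the summits were only 199 bp apart in a 650 bp gap. The peaks there overlapped, and both were matched to the same values, a relative signal of 1.58 in replicate 1 and 1.45 in replicate 2. The closest spacings among the 13 were of that size, and whether such summits are separate sites was not tested.

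Peaks in pairs were also somewhat stronger. Signal, the authors' value for each peak, had a median of 131 over the occupied pairs (quartiles 90.6 and 213), 113 over occupied single promoters and 103 over all replicated peaks. The ratio of pairs to single promoters was 1.16, and 1.20 and 1.16 in the lists of the 2 replicates (1.18 ± 0.0259, SD, n = 2). At least 2 times the median of all peaks was reached in 170 pairs (27.2%) and in 204 single promoters (17.8%). Across gap widths the median signal was 120, 137, 138, 139 and 115 from the narrowest to the widest.

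Pair windows took a larger part of the strong peaks than of the weak ones. They held 219 of the 1147 peaks in the top 20% by signal (19.1%), then 140, 114 and 85 in the next steps of 20%, and 80 at the bottom (6.97%). For single promoters the top and bottom shares were 23.7% and 18.7%. Of the strongest 100 peaks of the genome, 22 lay in pair windows, and of the strongest 20, 4 did. Over all 5735 replicated peaks the share was 11.1% (638 peaks). The replicates ranked most of the occupied pairs alike, but these pairs were picked by a list made from both replicates. The values below therefore describe the kept peaks only. Over 619 pairs with a region in both, relative signal (a replicate's strongest overlapping region over its median at all replicated peaks) had a Spearman correlation of 0.867 between replicates, as a description across sites of 1 genome, and 97.1% of them lay within 2-fold.

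The strongest pair was iff-2/F54C9.14 on chromosome II (5′ ends 8561367 and 8562302, gap 935 bp), where iff-2 is the translation factor eIF5A. Its peak ranked 4 of 5735 with a signal of 1401, and the relative signal was 14.2 in replicate 1 and 11.9 in replicate 2 (13.1 ± 1.67, SD, n = 2). The summit stood 67 bp from the iff-2 end and 868 bp from the other. In this wide gap the peak sat beside the end of iff-2.

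Next came rpl-20/Y17G9B.5 on chromosome IV (ends 4749778 and 4750240, gap 462 bp), which joins a large-subunit ribosomal protein to a homolog of the mitochondrial assembly factor ECSIT. Its signal was 1139, with a relative signal of 10.5 in replicate 1 and 10.8 in replicate 2 (10.6 ± 0.170, SD, n = 2). The summit was 285 bp from rpl-20 and 177 bp from its partner, so it was nearer to the gene that is not ribosomal.

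K01G5.10/tasp-1 on III (ends 10758522 and 10759307, gap 785 bp) had a signal of 998 and relative signals of 9.72 and 8.82, with the summit 55 bp from tasp-1, a homolog of the protease taspase. rpl-15/K11H12.8 on IV (gap 814 bp) had a signal of 871 and relative signals of 8.62 and 7.69. Its summit lay 350 bp from rpl-15 and 464 bp from K11H12.8, close to the centre. Y41D4A.6/Y41D4A.4 on IV (gap 498 bp), which joins a mitochondrial amidotransferase subunit to a transmembrane protein, reached 804, with 8.32 and 6.61.

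The rest of the 15 strongest pairs had signals from 732 down to 572. Ribosomal proteins stood in 5 of them. They were rps-20/ekl-4 (684), rpl-12/lin-54 (683), ska-3/rps-12 (683), rps-19/hsr-9 (649) and ifet-1/rps-1 (589). Their partners are of other kinds. ekl-4 encodes a DNMT1-associated protein homolog, lin-54 is the DNA-binding member of the DRM complex, and ska-3 is a spindle and kinetochore protein. The others were epc-1/Y111B2A.12 (732), with an Enhancer of polycomb homolog, rbc-2/ndua-8 (671), with a subunit of respiratory complex I, and drr-2/set-16 (627), with a histone methyltransferase. mig-5/cct-1 (573) joins a Dishevelled protein of Wnt signalling to a subunit of the chaperonin that folds actin and tubulin, and ndk-1/F25H2.6 (572) has a nucleoside diphosphate kinase.

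The summit position differed among these pairs as it did in the whole set. It was 27 bp from rpl-12 and 366 bp from lin-54, and 38 bp from ndk-1 and 415 bp from F25H2.6. In drr-2/set-16 (gap 346 bp) it lay 159 and 187 bp from the ends, and in mig-5/cct-1 (gap 420 bp) 178 and 242 bp. The replicates did not rank all of these pairs alike, as rps-20/ekl-4 had 5.93 in replicate 1 and 6.93 in replicate 2 while epc-1/Y111B2A.12 had 7.78 and 6.01.

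**Figure D4:**
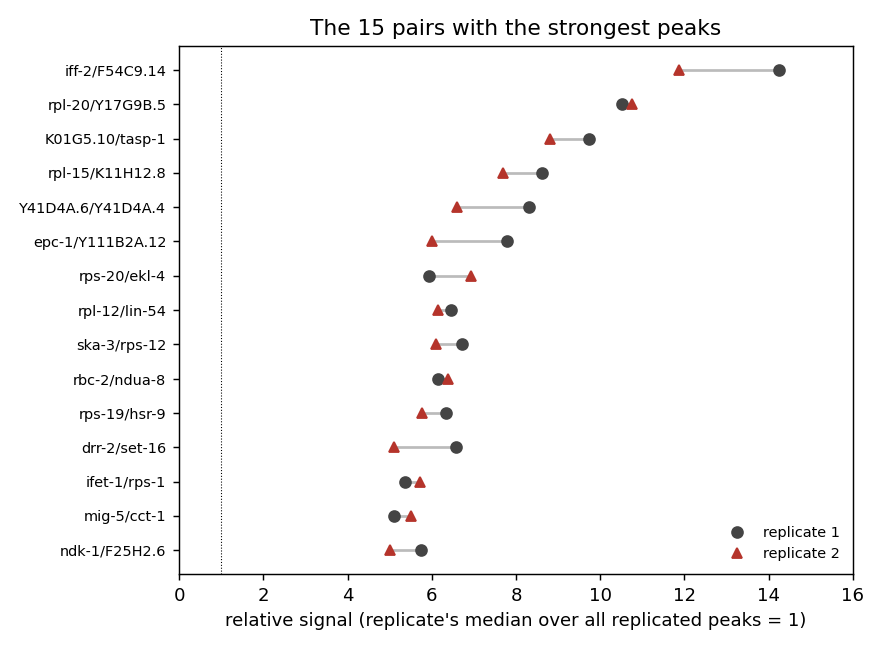
Relative signal of the 15 pairs with the strongest peaks (horizontal axis, where 1 is the replicate's median over all replicated peaks), with a point for each replicate joined by a line. iff-2/F54C9.14 is highest at 14.2 and 11.9, and ndk-1/F25H2.6, the last, stands at 5.73 and 5.01.

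Strong peaks were found in both very narrow and very wide gaps. The narrowest gaps among the 100 strongest occupied pairs were those of F32D8.14/F32D8.5 (12 bp, signal 290), Y59E9AL.36/nbet-1 (20 bp, 340) and Y57E12AL.6/Y57E12AL.1 (60 bp, 267), and in each the summit lay within a gene beside the gap. nbet-1 encodes a homolog of BET1, a SNARE of transport from the endoplasmic reticulum (ER), and its summit was at -112 bp when counted leftwards from the nbet-1 end, that is inside the gene. The widest were bath-42/prp-8 (990 bp, signal 329), larp-1/wip-1 (989 bp, 554) and rab-11.1/rpl-7 (981 bp, 326). Their summits lay 310, 323 and 323 bp from the right-hand gene.

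Genes of protein synthesis were common in occupied pairs. Gene lists were chosen with earlier results of these data known and were matched by symbol. A list's counts stand beside 36.4% for all pairs and 35.8% for the 1261 pairs with no listed gene. Cytosolic ribosomal proteins had 48 of 81 genes in pairs, and 41 of their 45 pairs were occupied (91.1%), with a median signal of 245 and a range from 115 to 1139. Of 7 single promoters of such genes 6 were occupied, so the share was high in both arrangements. The 4 unoccupied pairs, looked up after their values were seen, were M04F3.5/rpl-41.1, rla-2/popl-7, rpl-11.1/T22F3.2 and calf-1/rpl-2, and 3 of them held a weaker pooled region.

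In ribosomal pairs the summit usually lay nearer to the partner. In 38 occupied pairs with 1 ribosomal member, it was nearer to that member in 12, at a median of 299.5 bp from the ribosomal end and 186 bp from the partner's. At occupied single ribosomal promoters the median was 383 bp from the end. In 3 pairs both genes were ribosomal, and all were occupied. They were rps-14/rpl-36 (relative signal 2.33 and 3.29 in replicates 1 and 2), rps-10/rpl-24.1 (2.68 and 2.46) and rpl-39/rps-30 (1.68 and 1.84). The last had its summit 252 and 247 bp from the ends, at the centre of a 499 bp gap.

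The other lists of translation had lower median signals. Mitochondrial ribosomal proteins were occupied in 19 of 25 pairs (76%) and 5 of 8 single promoters, and their strongest pair was mrps-7/Y57G11C.3 at 307. Translation factors were occupied in 16 of 20 pairs (80%) and 5 of 7 single promoters. After iff-2, their strongest pair was eef-1A.1/rfc-4 (502, relative signal 4.28 and 5.13), which joins elongation factor 1A to a subunit of the replication clamp loader. Aminoacyl-tRNA synthetases, which charge tRNAs, were occupied in 5 of 10 pairs and 4 of 7 single promoters. In all 5 the summit lay nearer to the synthetase, and ears-2/uncp-18, with a gap of only 92 bp, was the strongest at 202 (relative signal 1.87 and 1.90).

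Protein turnover, splicing and respiration were likewise often occupied. Proteasome subunits stood at 17 of 20 pairs (85%) and 2 of 3 single promoters. Their strongest pair was hsp-110/rpn-3 (504, relative signal 4.80 and 4.64), which joins a heat shock protein of the HSP110 family to a lid subunit, followed by rpt-2/aps-1 (283). Splicing factors were occupied in 18 of 22 pairs (81.8%) but in 1 of 6 single promoters. Both members were splicing factors in rsp-2/rsp-1 (262) and snr-3/rsp-5 (146), where rsp genes encode SR proteins and snr-3 an Sm protein. Oxidative phosphorylation genes were occupied in 14 of 20 pairs (70%) and 4 of 7 single promoters, with the ATP synthase genes atp-1 (mcrs-1/atp-1, 396) and atp-2 (C34E10.10/atp-2, 274) in front. At mcrs-1/atp-1 the summit stood 10 bp from atp-1.

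Genes of the secretory route showed high shares in both arrangements. The secretory list was occupied in 14 of 19 pairs (73.7%) and 12 of 17 single promoters (70.6%). It was matched by symbol and takes in exocyst genes such as sec-15. Its strongest pairs were rab-1/C39F7.5 (444, relative signal 4.63 and 3.70) and rab-18/kbp-4 (426, 4.22 and 3.76), each with a small GTPase of membrane traffic. sec-61.B/trap-3 (421) joins parts of the ER translocon, and both its genes were listed. Chaperones and oxidoreductases of the ER had only 3 pairs, imp-2/enpl-1 (471), pdi-1/C14B1.2 (267) and dnj-20/ZK1307.8 (172), all occupied, as were 10 of 12 single promoters. V-ATPase subunits, which acidify organelles, were occupied in 3 of 6 pairs and 5 of 7 single promoters. The 3 pairs were C17H12.2/vha-8 (365), sqv-3/vha-1 (328) and F49C12.12/vha-17 (71.9), and in each the summit lay nearer to the partner.

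Together these 10 lists held 182 pairs, of which 142 were occupied (78.0%). They made up 22.7% of the occupied pairs, and the remaining majority had members of no list (452 pairs, 72.3%) or of the families described next.

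Large families of environmental response and secretion were occupied seldom. Chemoreceptors were occupied in 6 of 109 pairs (5.50%) and 5 of 707 single promoters (0.707%), and none of the 20 pairs of 2 chemoreceptors was. Among the 6 was rsr-1/sri-5 (216), whose rsr-1 is a splicing coactivator. C-type lectins were occupied in 2 of 41 pairs, srz-97/clec-57 (90.6) and clec-62/clec-63 (81.8), and in 4 of 94 single promoters. F-box and MATH-BTB genes, many of them adaptors of protein degradation, were occupied in 11 of 71 pairs (15.5%) and 4 of 158 single promoters (2.53%). fbxb-85/hex-3 led them at 372.

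Cuticle collagens were occupied in 3 of 17 pairs (17.6%) and 4 of 71 single promoters (5.63%), beside 36.4% and 11.9% over all genes. The pairs were col-38/rpl-5 (341), col-71/Y49F6B.2 (148) and col-117/col-3 (69.5). Nuclear hormone receptors were occupied in 5 of 15 pairs (33.3%), near the share of all pairs. Their single promoters were occupied in 31 of 169 cases (18.3%), above the share of all single promoters. H12C20.7/nhr-68 (344) and dnj-19/nhr-47 (286) were the strongest pairs. nhr-68 is a regulator of propionate metabolism, and its relative signal was 2.88 and 3.56. The list of neuropeptides and insulins, matched by symbol and not by function, was occupied in 3 of 7 pairs (42.9%) and 3 of 105 single promoters (2.86%). The pairs were nlp-4/exos-3 (127), nlp-34/nlp-31 (65.1) and T19C4.24/nlp-33 (65.0), the last 2 near the lowest signal of the whole list, 62.3.

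Of the 17 lists, histone genes were the most often in divergent pairs, with 63 of 81 genes in pairs. They were nevertheless occupied in 5 of 32 pairs (15.6%), beside 3 of 11 single promoters. Both members were histones in 31 pairs, 4 of them occupied. They were his-61/his-62 (179), his-67/his-68 (171), his-35/his-41 (104) and his-60/his-59 (73.2). The strongest, wapl-1/htz-1 (406, relative signal 3.94 and 3.59), pairs the variant H2A.Z with the cohesin release factor WAPL. Histone genes are near-identical copies, so reads from them may not have been placed uniquely and these counts are uncertain.

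**Figure D5:**
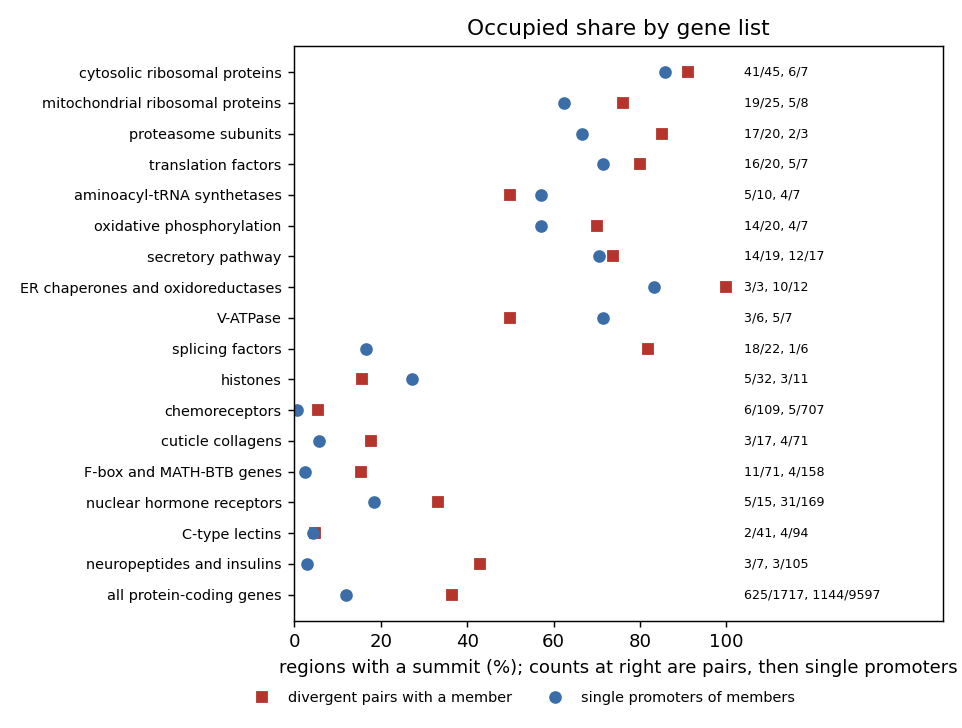
Share of divergent pairs and of single promoters with a summit (%, horizontal axis) for each of 17 gene lists and for all protein-coding genes (vertical axis), with the numbers of pairs and single promoters at the right. Ribosomal proteins are at 91.1% of pairs and chemoreceptors at 5.50%, and several lists have fewer than 10 single promoters.

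Chromosomes III, X and I had the highest shares for pairs and for single promoters alike. Occupied pairs made up 48.9% on III (139 of 284), 41.8% on X (33 of 79) and 41.2% on I (131 of 318). The shares were 36.0% on IV (109 of 303), 30.9% on II (97 of 314) and 27.7% on V (116 of 419). Single promoters stood at 16.3% on III, 15.7% on X, 14.3% on I, 10.5% on II, 9.76% on IV and 8.19% on V. Neighbours in the order of the pairs had overlapping intervals, such as IV (30.8 to 41.5%) and II (26.0 to 36.2%). The intervals cover counting error only, so the order of chromosomes was not tested.

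Some gaps held a short non-coding gene. Of 154 such pairs, 81 were occupied (52.6%), against 544 of 1563 without one (34.8%). The share was 66.4% for the 110 pairs with a gene of the ncRNA biotype. In 62 of those 73 occupied pairs the summit lay within 100 bp of such a gene. The share expected from the lengths of these genes and gaps was not worked out. Gaps with a piRNA were occupied in 5 of 31 cases (16.1%). At ifet-1/rps-1 the summit at 4475654 on III lay inside both F56F3.11 and F56F3.10, and at rab-1/C39F7.5 it lay 11 bp from C39F7.7. Whether these annotated RNAs were transcribed in the larvae was not measured.

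Few pair summits held the letters known for the CREB family. The windows took 50 bp on either side of the strongest summit, and both strands were read. TGACGTCA was in 8 of 625 pair summits (1.28%), 19 of 1134 single-promoter summits (1.68%) and 74 of all 5735 peaks (1.29%). TGACGTGG was in 3 pair summits (0.48%), 16 single-promoter summits (1.41%) and 136 peaks (2.37%). TGACGTGT was in 5 pair summits (0.8%), 19 single-promoter summits (1.68%) and 69 peaks (1.20%). All of them contain TGACG, which on its own was in 23.7% of pair summits, 22.5% of single ones and 21.5% of all. In windows of the same length at the middle of the gap it was in 11.1% of unoccupied pairs (121 of 1092) and in 81 of 625 occupied pairs. Over whole gaps the shares were nearly alike, 38.6% of unoccupied and 41.1% of occupied pairs.

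Other short motifs were described in the same windows. CACGTG, which is part of no motif above, was in 4.32% of pair summits and 7.14% of single ones, with Wilson intervals of 2.99 to 6.21% and 5.78 to 8.79%. TGATAA, the core bound by GATA factors of the gut and other tissues, was in 44 pair summits (7.04%, 5.29 to 9.32%), 226 single ones (19.9%, 17.7 to 22.4%) and 1071 of all peaks (18.7%). In whole gaps it was in 38.7% of occupied and 43.4% of unoccupied pairs. GAGAGAGA was in 3.04% of pair summits (1.95 to 4.70%) and 6.79% of single ones (5.47 to 8.41%), and GGGCGG in 5.12% and 3.70%. In windows of the same length at the middle of the gap, CACGTG was in 2.29% of unoccupied and 1.6% of occupied pairs. In that order GAGAGAGA was in 1.01% and 0.8%, GGGCGG in 3.02% and 4%, and TGATAA in 10.1% and 9.12%. Pair summits thus stood above the middle of the gap for CACGTG, GAGAGAGA and GGGCGG, and below it for TGATAA. The intervals of pairs and single promoters overlapped for CACGTG and did not for TGATAA and GAGAGAGA. They cover counting error over sites of the same genome. Whether they overlap is no test of a difference between the classes, and overlap does not show that the classes are alike.

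Base composition was higher in GC at summits than around them. The 101-base windows had a mean GC content of 44.9% at pair summits and 43.9% at single summits (SD 7.88 and 7.81 over windows). At the middle of unoccupied gaps it was 33.9%, and whole gaps had 34.0% in occupied and 33.7% in unoccupied pairs. The rise was thus local to the summit, and its part in the motif counts was not tested.

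TTTCAG, the usual letters of a splice acceptor in this worm, was counted directly before every annotated 5′ end on the strand of the gene, a choice made after sequences of these gaps were read. It stood directly before 482 of 3434 pair ends (14.0%) and 1194 of 9597 single ends (12.4%). It was before 286 of 1250 ends of occupied pairs (22.9%, Wilson 20.6 to 25.3%) and 196 of 2184 ends of unoccupied pairs (8.97%, 7.85 to 10.2%). Pairs with no such end were occupied in 28.7% of cases (367 of 1279), those with 1 in 58.4% (230 of 394) and those with 2 in 63.6% (28 of 44). Single promoters with these letters were occupied in 21.2% and those without in 10.6%, so the order was the same there. The summit also stood farther off where the nearer end carried them, at a median of -176.5 bp in 110 pairs, against -102 bp in 514 pairs without.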

How the data were processed

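ChIP-seq against CRH-2 was measured in 2 biological replicates, and no label says whether they were separate cultures, so the spread between them may be technical. The authors' lists cover each replicate and the pool of both. Peak caller, aligner and versions: not given in the sources used here. Depth is unknown, and intervals cover counting error only.

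The deposited lists are narrowPeak files on ce11. Signal is the authors' own value per region and was used only within a list. The deposited −log10 q-value was 4.07 throughout the replicated list. The summit is the start plus the deposited offset. The 5735 replicated peaks were the 5735 strongest of 30000 pooled regions, so IDR set how many were kept. Of them, 5 overlapped no region of replicate 1 and 26 none of replicate 2. The width was 376 bp for 89.2%. Columns of values with no sample numbered 0, and ce10 files were not used.

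Gene ends came from Ensembl release 115 on WBcel235, within whose chromosome lengths all replicated peaks ended, and sequences from the RefSeq copy of that assembly. The spread of a share is its SD over the 5735 strongest regions of each replicate. Work was done in Python 3.11.15 with numpy 2.4.6, scipy 1.17.1 and matplotlib 3.10.9, with scripts tested on simulated data. The pairs and gene lists were chosen with earlier results of these data known. The pairs named are the 15 strongest, the 5 with the strongest second summit, the top 2 per list and up to 3 per list with both members listed, and the 3 widest and 3 narrowest gaps of the strongest 100. Further pairs were named after their values were seen where a list had 5 or fewer occupied or unoccupied pairs. Some of these items are not reported here. Alternatives varied the distance, the number of peaks, the gap limit, non-coding genes in gaps, the overlap rule, the definition of single promoters and the replicate used.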

Additional observations from a re-analysis of the deposited data

How the results depend on the processing

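No paired analysis was possible because there is 1 group. Each replicate was left out in turn by using the list of the other alone, which gave 34.8 to 35.4% of pairs occupied, a difference from single promoters of 22.8 to 23.8 points, 21.6 to 21.9% of pair ends and 6.45 to 6.78% of single ends with a summit, 45.7 to 46.6% of summits in the middle part of the gap, 89.8 to 90.8% of occupied pairs with a summit between the ends, 18.6 to 18.8% with a peak over both ends and a signal ratio of 1.16 to 1.20.

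No value reversed. Distances of 100 and 500 bp gave 35.5 and 37.2% of pairs, 8.07 and 33.2% of pair ends, 2.32 and 10.8% of single ends, 92.5 and 88.4% with a summit between the ends and 17.2 and 16.5% with a peak over both, and 500 bp a difference of 22.7 points. The strongest 2867 peaks and the 10000 strongest pooled regions gave 24.0 and 45.0% of pairs, 17.3 and 26.8 points, 14.9 and 28.4% of pair ends, 3.59 and 10.6% of single ends, 91.5 and 89.1% between the ends, 14.8 and 17.9% over both and signal ratios of 1.13 and 1.41, and the larger list 42.1% in the middle part of the gap. Gaps up to 500 bp gave 38.9% of pairs, 28.4 points, 31.5% of pair ends, 48.4% in the middle part of the gap, 87.3% between the ends, 29.7% over both and a ratio of 1.20. Gaps without a non-coding gene gave 34.8%, 23.0 points, 42.8% in the middle part of the gap and 18.0% over both. Any overlap of peak and window gave 37.0% and 23.3 points. All genes outside pairs as single promoters gave 7.44% of single ends and a ratio of 1.21. Leaving out 6 gene families, chosen after seeing the data, gave 27.5 points, and autosomes only, also chosen then, stayed within the replicate spread. The cause of these shifts was not tested. For named pairs, the relative signal in each replicate was set against that of the replicated list. The difference was within the SD of the 2 replicates for 81 values and beyond it for 47. That SD comes from the same replicate values, so these counts do not measure how well the replicates agree.

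Depth is unknown, so weak pairs below the authors' threshold cannot be told from empty ones. Gene 5′ ends are annotated ends, which can differ from transcription starts where messages are trans-spliced. Pairs share genes of 1 genome and are not replicates.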
